A study of Danio rerio with 12 samples.

Results

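Zebrafish (Danio rerio) embryos of the 12 somites stage were compared after exposure to all-trans retinoic acid (atRA) or to its solvent, dimethyl sulfoxide (DMSO). Per the labels, whole wild-type embryos received 0.1 µM atRA or DMSO at 80% epiboly, near the end of gastrulation, and were collected at 12 somites. Each treatment had 2 libraries, so the comparison used 4 of the 12 libraries of the series, chosen by their labels. The other 8 came from 80% epiboly (treated at 30% epiboly) and from 24 hours post fertilization (hpf; treated at 80% epiboly), with 2 libraries per treatment and stage. Egg envelope and yolk were removed before lysis. The libraries come from whole embryos, so a region open in more cells and one more open per cell cannot be told apart. The labels do not say that replicates came from separate clutches, and the spread between them may be technical.

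Retinoic acid is a signalling derivative of vitamin A. It binds nuclear retinoic acid receptors, which sit on DNA as partners of retinoid X receptors and exchange corepressors for coactivators when the ligand is bound. In vertebrate embryos it patterns the hindbrain and trunk during segmentation, in part through Hox genes, and enzymes of the Cyp26 family break it down. Chromatin was profiled by ATAC-seq, in which a transposase inserts sequencing adapters and cuts DNA mainly where nucleosomes leave it open. Each peak in a deposited list is a stretch of such DNA.

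The 4 lists differed in depth. They held 156361 and 235850 peaks in DMSO replicates 1 and 2, and 272915 and 239473 in atRA replicates 1 and 2, on chromosomes 1 to 25. The lists give no read totals, so the most frequent background pileup of a list served as its depth. It was 0.69 and 1.15 fragments in DMSO and 1.6 and 1.44 in atRA. DMSO replicate 1 stood apart as the shallowest list of the series. Peaks were therefore ranked within each list, best p-value first, and equal numbers were compared: the best 50000 of each library, with the best 100000 as a wider set. With 2 libraries against 2, the smallest p of a two-sided exact permutation test is 0.333. Differences between treatments at 12 somites are therefore given beside the same values for the crossed splits, in which each arm holds 1 DMSO and 1 atRA library.

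The strongest accessible sites were common to both treatments. Of the best 5000 peaks of an atRA library, on average 99.85% lay in the best 50000 of a DMSO library, and for DMSO peaks in atRA libraries this was 100%. Sharing dropped with rank: of atRA peaks between ranks 20000 and 30000, 75.94% (range 71.25% to 81.13%, 4 directed pairs) were found in the best 50000 of a DMSO library. The atRA libraries held 87.81% of each other's peaks in that interval, and the DMSO libraries 74.54%. The DMSO pair therefore shared no more there than libraries of different treatment did.

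**Figure D1:**
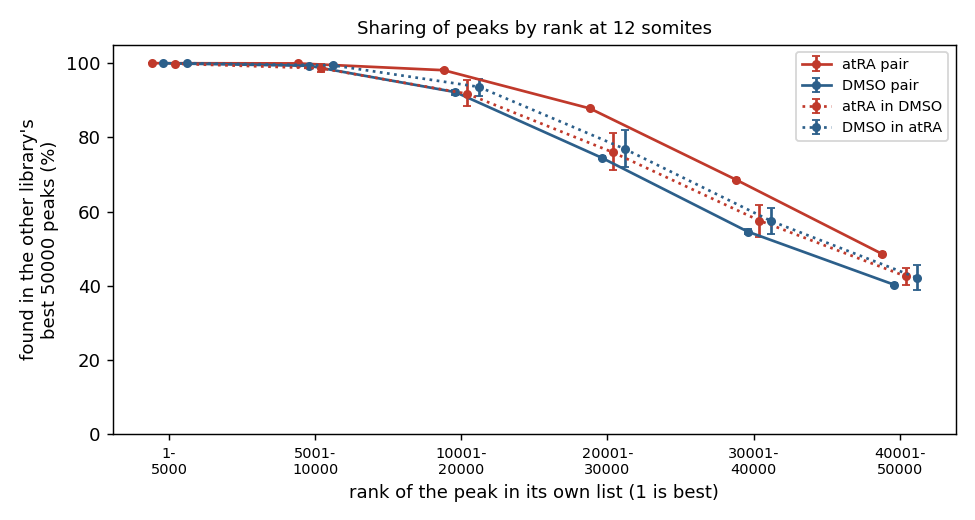
Percentage of peaks of 1 library (y axis) found in the best 50000 of another, by rank in its own list (x axis); points are means over directed pairs and bars give the lowest and highest pair. All 4 lines lie near 100% up to rank 10000 and fall to 40.35% to 48.61% beyond rank 40000, with the atRA pair uppermost.

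Over the whole of the best 50000, the atRA libraries shared 80.62% of their peaks and the DMSO libraries 72.27%. The 4 pairs of different treatment shared 70.78%, 71.44%, 75.83% and 76.74%, and both lower values belonged to DMSO replicate 1. Pairs of the same treatment exceeded pairs of different treatment by 2.75 percentage points, against -1.28 and -1.47 points in the crossed splits. The values of the splits always cancel when added, because the same pairs enter all of them. The crossed values are therefore no independent reference for the separation. The treatment value rested on the atRA pair. It was -1.82 points without atRA replicate 1 and -1.04 points without atRA replicate 2, 4.34 points without DMSO replicate 1 and 9.51 points without DMSO replicate 2.

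The merged best peaks of the 4 libraries gave 76010 regions, of which 29579 lay in the best 50000 of all 4. A region was called gained with atRA if it lay in the best 50000 of both atRA libraries and outside the best 100000 of both DMSO libraries. A lost region met the reverse condition. There were 466 gained regions, 0.613% of the regions compared, and 183 lost regions, 0.241%. The crossed pairs of the same libraries gave 54, 61, 87 and 88 regions, or 0.071%, 0.0803%, 0.114% and 0.116%. Gained regions were thus 5.30 times and lost regions 2.08 times as many as in the highest crossed pair. The mean background pileup was 1.52 in atRA and 0.92 in DMSO, a wider gap than between the arms of either crossed split (1.145 and 1.295; 1.065 and 1.375). Whether depth took part in the counts was not tested.

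**Figure D2:**
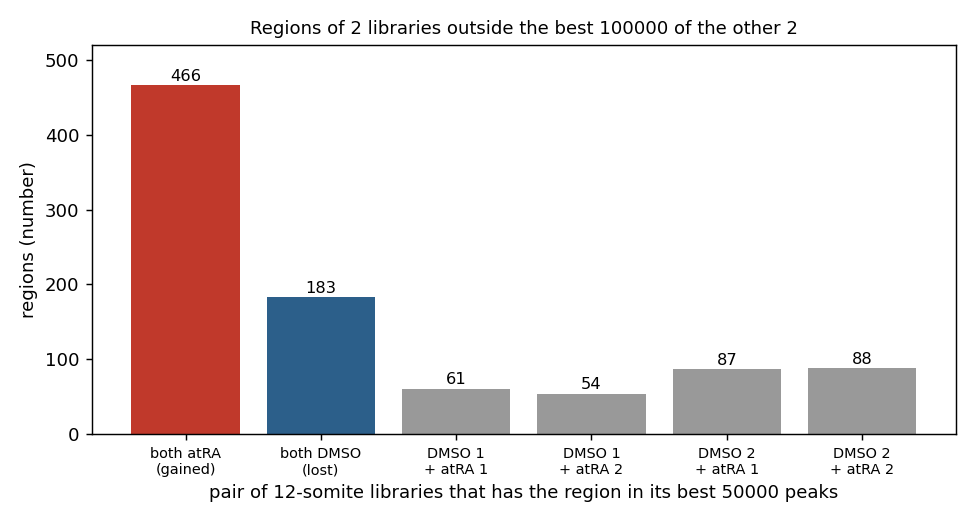
Number of regions (y axis) in the best 50000 peaks of both libraries of a pair and outside the best 100000 of the other pair, for each pair of 12-somite libraries (x axis). The 466 gained and 183 lost regions stand above the 54 to 88 regions of the crossed pairs.

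Single pairs of libraries show how much of this comes from 1 library. Across treatments, atRA replicate 2 and DMSO replicate 2 were the lists nearest in depth. Of the 76010 regions, 3051 were in the best 50000 of the former and outside the best 100000 of the latter, and 2787 the reverse. Between atRA replicate 1 and DMSO replicate 2 the numbers were 3695 and 2984. The atRA libraries differed from each other by 1649 and 1550 regions, fewer than from any DMSO library. The DMSO libraries differed from each other by 4981 and 5469 regions, more than DMSO replicate 2 differed from either atRA library. Leaving out a library makes the rule looser by construction and changes the regions compared, and crossed pairs were not counted for it. Gained regions were then 1108 without DMSO replicate 1, 2723 without DMSO replicate 2, 1530 without atRA replicate 1 and 2046 without atRA replicate 2. Lost regions were 1315, 3206, 589 and 649 in the same order. Without a DMSO library, a lost region needs only 1 library that has it, while a gained region still needs 2. Without an atRA library the reverse holds. The 2 directions thus follow unequal rules here, and which of them has more regions cannot be read from these counts.

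Most gained and lost sites had a listed peak in at least 1 library of the other treatment and differed in strength. Gained regions were listed in DMSO less often than all regions, 36.3% and 86.5% against 90.9% and 97.3%. For lost regions in atRA the shares were 92.9% and 95.1%, against 98.6% and 98.1% of all regions. The rule lowers the gained and lost shares, because it takes only regions outside the wider set of the other treatment. Of all regions, 83.8% and 87.2% lay in the wider set of the DMSO libraries, and 88.7% and 88.8% in that of the atRA libraries. The contrasts with all regions are therefore set in part by the rule. Listing among other regions outside the wider set was not compared. Among the gained regions, 149 had a listed peak in both DMSO libraries, 274 in 1 of them and 43 in neither. Of the 274, 254 lacked a peak in DMSO replicate 1, the shallowest list. All 183 lost regions had a peak in at least 1 atRA library, and 161 in both. Members were mostly of middle rank: the worse of the 2 atRA ranks had a median of 42924 over gained regions, and 5 regions had both ranks within 20000. For lost regions the median was 43981, and 1 region had both DMSO ranks within 20000. At the other edge of the rule, 116 gained regions had a DMSO rank between 100001 and 110000, and 63 lost regions had an atRA rank in that interval.

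To lessen differences in depth, each summit pileup was divided by the background pileup of its list. This does not remove depth: the lowest listed pileup was 4 on a background of 0.69 in DMSO replicate 1. In atRA replicate 1 it was 6 on 1.6, so the lowest scaled value that can be listed is higher in DMSO replicate 1. On this scale, the regions in the best 50000 of all 4 libraries had medians of 27.5 and 28.7 in DMSO and 26.9 and 27.8 in atRA. The scaled libraries were therefore close at common sites, with a median log2 ratio of atRA over DMSO of -0.07. Gained regions had median scaled pileups of 17.5 and 17.4 in the atRA libraries. In DMSO the medians were 8.7 and 8.7, over the 169 and 403 gained regions with a listed peak. Lost regions had medians of 17.4 and 17.4 in DMSO and of 8.1 and 8.3 in atRA, over the 170 and 174 with a listed peak. The median log2 ratio was 0.94 over the 149 gained regions listed in all 4 libraries (range 0.35 to 1.91) and -1.06 over the 161 lost regions (range -1.67 to -0.63). These ratios describe what the rule selected and were not tested.

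The 10 gained and 10 lost regions described next are those whose worse rank in the libraries that have them was best. Coordinates are those of the deposited lists, and the submitters' processing notes name the build GRCz10 (danRer10). The gained region of best rank was chr4:11621529-11621925. Its summit pileups were 6 and 10 in DMSO and 39 and 35 in atRA, which are 8.7 and 8.7 against 24.4 and 24.3 times background. The scaled ratio was 2.80, with no overlap between treatments, which the rule selects for. This site also ranked better in atRA at 24 hpf, at 13002 and 38922 against 62577 and 84064 in DMSO, while at 80% epiboly its best rank was 183544.

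The region chr13:7685567-7685964 ranked 7230 and 19638 in the atRA libraries, with pileups of 50 and 33, and had no listed peak in either DMSO library. The lowest pileup listed was 4 in DMSO replicate 1 and 5 in DMSO replicate 2. At the other stages it had no peak in 7 of 8 libraries and rank 195177 in the remaining one, a DMSO library of 24 hpf. It was thus seen as a strong site in atRA embryos of 12 somites and in no other group. The region chr24:41409480-41409733, also without a DMSO peak at 12 somites, ranked 19982 and 25104 in atRA. At 24 hpf its direction was the opposite: it ranked 30642 and 20667 in DMSO, had no peak in atRA replicate 1 and ranked 155688 in atRA replicate 2. It was absent from both 80% epiboly DMSO lists.

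Other gained sites were accessible in controls before or after this stage. The region chr7:36714180-36714453 ranked 11877 and 20844 in atRA, was not listed in DMSO replicate 1 and came at 119350 in DMSO replicate 2. At 24 hpf it ranked between 8629 and 17179 in all 4 libraries. The region chr11:41392219-41392441 had scaled pileups of 19.4 and 20.1 in atRA, no peak in DMSO replicate 1 and a scaled pileup of 7.8 in DMSO replicate 2. It was open both earlier and later, at ranks 7982 and 10408 in the 80% epiboly DMSO libraries and 37418 and 29563 in those of 24 hpf. Among the 10 best gained regions, 6 lay in the best 50000 of both 24 hpf DMSO libraries and 2 in those of both 80% epiboly DMSO libraries. Of all regions, 46.7% and 46.5% did so. In the 5 with a listed peak in all 4 libraries, the scaled ratio of atRA over DMSO lay between 2.13 and 2.95.

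**Figure D3:**
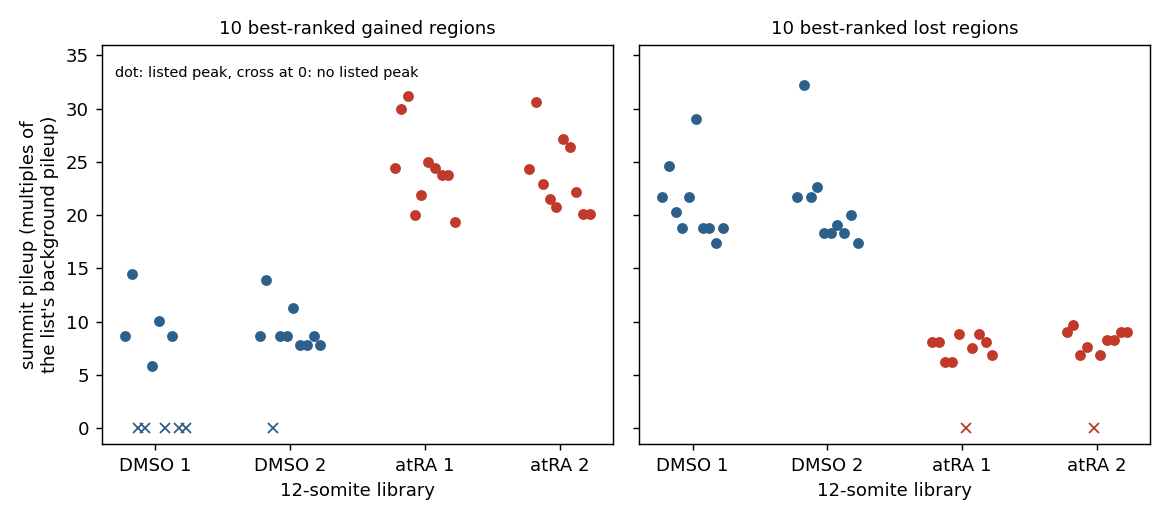
Summit pileup as a multiple of the background pileup of the list (y axis) in each 12-somite library (x axis), for the 10 best-ranked gained and the 10 best-ranked lost regions. Each dot is a listed peak and a cross at 0 marks a region with no listed peak; treatments do not overlap in either panel, which the choice of regions fixes.

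The lost region of best rank, chr6:49193713-49194043, had pileups of 15 and 25 in DMSO and 13 and 13 in atRA. Scaled to background these are 21.7 and 21.7 against 8.1 and 9.0, a ratio of DMSO over atRA of 2.53. The call was lost when peaks were ranked by fold, with the best 100000 peaks (wider set 150000), with all peaks at a q-value up to 0.01, and when absence meant no listed peak. The region chr9:52463685-52464041 had scaled pileups of 24.6 and 32.2 in DMSO and 8.1 and 9.7 in atRA. It was listed at 80% epiboly, at ranks 64928 and 62400 in DMSO and 29943 and 6086 in atRA. At 24 hpf it had no peak in 3 libraries and rank 219034 in the other. The region chr9:35812822-35813135 was likewise listed in the 80% epiboly libraries, at ranks between 37426 and 70896, and had no peak in any library of 24 hpf. Its scaled pileups at 12 somites were 18.8 and 19.1 in DMSO and 7.5 and 8.3 in atRA.

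Most lost sites were still listed in the 24 hpf DMSO libraries, 67.8% and 75.4% against 89.7% and 93.0% of all regions. In the atRA libraries of that stage the shares were 54.6% and 45.9%, against 87.6% and 83.3% of all regions. The region chr5:63291537-63291787 ranked 17814 and 28334 in DMSO, 106620 in atRA replicate 1, and had no peak in atRA replicate 2. It ranked 45899 and 27172 in the 24 hpf DMSO libraries and no better than 152099 at 80% epiboly. The region chr23:10097298-10097538 ranked 25086 and 16849 in DMSO against 197150 and 140826 in atRA, and ranked between 22310 and 80271 in all libraries of the other stages. In the 8 best lost regions listed in all 4 libraries, the ratio of DMSO over atRA lay between 2.17 and 3.19.

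The remaining libraries of the series took no part in choosing the regions. They showed how often gained and lost sites ranked among the best 50000 peaks at the other stages. In the 4 libraries of 24 hpf, 46.8% and 33.5% (DMSO) and 44.2% and 49.6% (atRA) of the 466 gained regions lay in the best 50000. In the 4 libraries of 80% epiboly, 20% and 17.4% (DMSO) and 13.7% and 18.7% (atRA) did. Every library of 24 hpf was therefore above every library of 80% epiboly. Over all 76010 regions the mean shares were 54.5% at 24 hpf and 51.8% at 80% epiboly, so gained regions lay below all regions at both stages, with differences of -11.0 and -34.4 points. Lost regions had the opposite order, with 10.9%, 12.0%, 8.7% and 9.3% at 24 hpf and 25.1%, 26.8%, 31.1% and 24.6% at 80% epiboly. These shares describe rank and not presence. A peak of any rank was listed for 89.3% and 89.9% (DMSO) and 83.7% and 54.9% (atRA) of gained regions at 80% epiboly. At 24 hpf it was 88.8% and 91.4% (DMSO) and 88.6% and 88.2% (atRA). For all regions the values were 97.3%, 97.3%, 96.6% and 82.2% at 80% epiboly and 89.7%, 93.0%, 87.6% and 83.3% at 24 hpf.

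Over 4 libraries per stage, gained regions were found in 43.5% ± 7.04 (SD, n = 4) at 24 hpf and 17.4% ± 2.68 (SD, n = 4) at 80% epiboly. The difference of 26.1 points had p = 0.0286, the smallest possible over 70 splits (exact permutation test of stage labels, two-sided). Lost regions were found in 10.2% ± 1.5 (SD, n = 4) at 24 hpf and 26.9% ± 2.97 (SD, n = 4) at 80% epiboly, a difference of -16.7 points (exact permutation, p = 0.0286). The gap between gained and lost regions differed between stages by 42.7 points (exact permutation, p = 0.0286). Adjusted over these 3 tests by the Benjamini-Hochberg method, each p was 0.0286. The tests were chosen after the values were seen. Leaving out 1 of the 12-somite libraries when choosing gained regions gave 24.7 (DMSO replicate 1), 17.4 (DMSO replicate 2), 13.8 (atRA replicate 1) and 14.8 points (atRA replicate 2). For lost regions the values were -11.4, -5.07, -15.8 and -15.4 points in that order. Overlap of at least 50% both ways lowered the gained value to 9.0 points, and windows around summits brought the lost value to -5.51 points. With all peaks at a q-value up to 0.01 in place of equal numbers, gained regions turned to -21.4 points (exact permutation, p = 0.143) and lost regions stood at -36.4 points (exact permutation, p = 0.114). For all 76010 regions the stages differed by 2.6 points (exact permutation, p = 0.0286) and for the 290 regions of the crossed pairs by -1.9 points, with single crossed pairs between -6.9 and 1.1. Background pileups were 0.87 to 3.28 at 80% epiboly and 1.39 to 2.03 at 24 hpf, and their part in the stage difference was not tested.

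**Figure D4:**
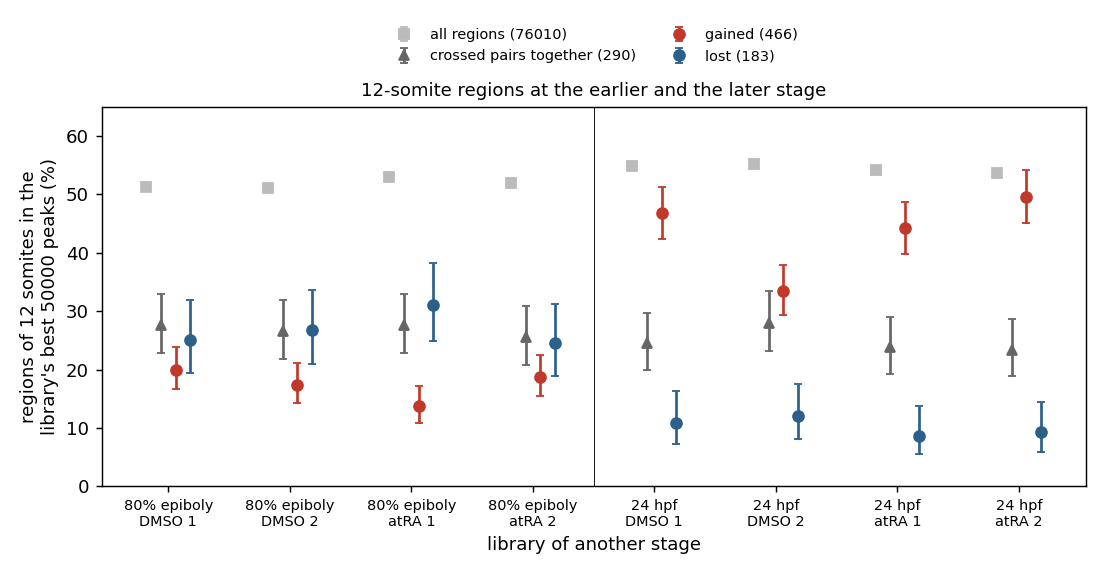
Percentage of 12-somite regions that lie in the best 50000 peaks of each library of 80% epiboly (left) and 24 hpf (right); bars are 95% Wilson intervals, which cover counting error only. Gained regions lie at 13.7% to 20% on the left and 33.5% to 49.6% on the right, lost regions at 24.6% to 31.1% and 8.7% to 12.0%, and the regions of crossed pairs at 23.4% to 27.9% throughout.

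Counted by control development alone, 20% of the gained regions were in the best 50000 of both 24 hpf DMSO libraries and not of both 80% epiboly DMSO libraries, and 8.2% showed the reverse. Of the lost regions, 2.2% and 19.1% did so, and of all regions 14.4% and 14.2%. Most members lay at neither stage in the best 50000 of both DMSO libraries: 66.3% of the gained and 77.0% of the lost regions. The same held for 39.1% of all regions and 67.6% of the crossed-pair regions. These shares include regions in the best 50000 of only 1 DMSO library of a stage. Among the 43 gained regions with no DMSO peak at 12 somites, 42 had a peak in at least 1 DMSO list of 24 hpf and 20 lay in the best 50000 of at least 1. Of all regions 95.7% had such a peak and 63.3% lay in such a set. In the DMSO lists of 80% epiboly, 37 had a peak and 3 lay in the best 50000 of at least 1 library, against 98.3% and 55.9% of all regions. A single region, chr1:55286308-55286801, had no peak in any DMSO list of the series. It ranked 49395 and 34889 in atRA at 12 somites, and its other listed peak ranked 182781, in atRA replicate 1 of 80% epiboly.

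A further comparison asked whether these regions also separate treated from control embryos at the other stages. Gained regions were found in the best 50000 of 46.9% ± 3.79 (SD, n = 2) in atRA and 40.1% ± 9.41 (SD, n = 2) in DMSO at 24 hpf. At 80% epiboly the values were 16.2% ± 3.49 and 18.7% ± 1.82 (SD, n = 2). The mean difference was 2.15 points, with a two-sided p of 0.778 in an exact permutation test over 36 labelings. These labelings cannot give a p under 0.0556 whatever the effect, so the test cannot pass 0.05 and does not show that treatments were alike. For lost regions the mean difference was -0.273 points (exact permutation, p = 0.944). Peak names of both DMSO lists of 24 hpf carry the word "nuevo", which no other list has. The labels do not say what it marks, and whatever it marks cannot be told apart from treatment at that stage.

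Few single regions kept their direction. At 24 hpf, 26 of the 466 gained regions (5.58%) were in the best 50000 of both atRA libraries and neither DMSO library, and 11 (2.36%) the reverse. The shares of all 12-somite regions were 1.57% and 2.08%. At 80% epiboly the gained regions gave 12 in the same and 20 in the opposite direction, 2.58% and 4.29% against 2.99% and 2.42% of all regions. Of the 183 lost regions, 1 kept its direction at 24 hpf (background 2.08%) and 4 at 80% epiboly (background 2.42%). The opposite direction held for 0 at 24 hpf (background 1.57%) and for 8, or 4.37%, at 80% epiboly (background 2.99%). None of these counts was tested. Besides the chromosome 4 site, chr23:41072005-41072317 was on the atRA side at 80% epiboly: treated libraries had it at ranks 30450 and 25073, controls at 169042 and 129047. At 24 hpf its ranks overlapped, at 89704 and 111214 with atRA and 59039 and 93239 in DMSO. Its 12-somite ranks were 19975 and 18320 with atRA and 124954 in DMSO replicate 2, while DMSO replicate 1 listed none. The lost region chr23:10649267-10649599 ranked 41326 and 26480 in DMSO of 80% epiboly and 111330 and 54095 in atRA. At 12 somites it ranked 33432 and 40563 in DMSO, had no peak in atRA replicate 1 and ranked 100327 in atRA replicate 2.

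Gained regions were spread over all chromosomes, unevenly. Chromosome 13 had 45 of them, 14.11 per 1000 of its regions, and held 9.66% of gained regions against 4.2% of all regions. Chromosome 12 followed with 11.49 per 1000, chromosome 15 with 9.90 and chromosome 11 with 9.53. The median chromosome had 5.79 per 1000, and chromosomes 8 (1.90) and 6 (2.00) had the fewest. Lost regions did not share this order: chromosome 13 had 5, or 1.57 per 1000, and chromosome 8 had the most, 4.12 per 1000. The 4 crossed pairs had 1 to 3 regions each on chromosome 13, together 2.51 per 1000. Together they had 6.90 per 1000 on chromosome 12, 5.12 on chromosome 15 and 2.82 on chromosome 11. Of the 43 gained regions with no DMSO peak, 8 were on chromosome 13. Without a library, the gained regions on chromosome 13 were 76 of 1108 (DMSO replicate 1), 190 of 2723 (DMSO replicate 2), 92 of 1530 (atRA replicate 1) and 133 of 2046 (atRA replicate 2). These rates are descriptions, with no test.

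**Figure D5:**
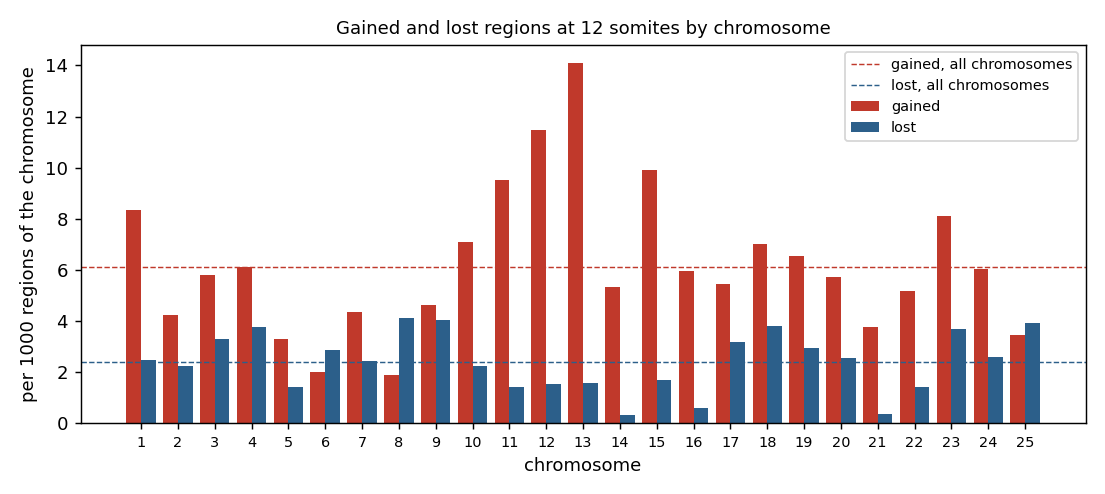
Gained and lost regions per 1000 regions of each chromosome (y axis; chromosomes on the x axis), with dashed lines at the values over all chromosomes, 6.13 for gained and 2.41 for lost. Gained regions reach 14.11 per 1000 on chromosome 13, where lost regions are at 1.57.

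Some gained sites lay near each other. In 41 cases the next gained region on the chromosome was under 100 kb away, and in 11 under 20 kb. Lost regions had 2 and 1 such cases and single crossed pairs at most 1 and 0. The 290 regions of the crossed pairs, pooled into a single list, had 4 and 0. Per region, cases under 100 kb came to 8.8% for gained, 1.09% for lost and 1.38% for pooled crossed-pair regions. All these other lists are shorter than the gained list, and the part of list length in the counts was not tested. The megabase with the most gained regions was 35000001 to 36000000 of chromosome 15, with 6 of its 99 regions gained and none lost. The adjoining megabases from 8000001 to 10000000 of chromosome 12 had 63 and 34 regions, of which 8 were gained and none lost. Lost regions numbered 2.41 per 1000 over all chromosomes, so a megabase without any is common. These megabases were chosen for description after the counts were seen.

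The widest member of the chromosome 12 group, chr12:8919964-8920859, spanned 896 bp. Its pileups were 7 and 10 in DMSO and 63 and 45 in atRA, or 10.1 and 8.7 against 39.4 and 31.2 times background, a ratio of 3.75. The site was open in all libraries of 80% epiboly, at ranks 10063 to 21455. At 24 hpf it ranked 13358 and 17369 in atRA, while DMSO replicate 2 gave 85527 and DMSO replicate 1 listed none. Both later stages thus had it among the best 50000 peaks of the treated libraries and outside the best 50000 of the controls. Upstream of it, chr12:8894974-8895279 had scaled pileups of 21.2 and 25 in atRA, no peak in DMSO replicate 1 and 7.0 in DMSO replicate 2. At 24 hpf that region ranked 13773 and 23205 in atRA against 41991 and 94914 in DMSO. Downstream, chr12:8992888-8993239 had scaled pileups of 19.4 and 21.5 in atRA and 7.0 in DMSO replicate 2, and was not listed in DMSO replicate 1. At 24 hpf it ranked 44571 and 37912 in atRA and 65725 and 65898 in DMSO. The other 5 regions of the group had pileups of 21 to 32 in the atRA libraries and at most 11 in a DMSO library. Not all of them followed at 24 hpf: chr12:8746365-8746693 ranked 34357 and 57029 in DMSO against 115697 and 71004 in atRA.

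On chromosome 15, chr15:35210828-35211032 had scaled pileups of 7.2 and 9.6 in DMSO and 20 and 19.4 in atRA, and chr15:35603258-35603691 had 10.1 and 7.8 against 20.6 and 14.6. The latter region was on the atRA side at both other stages, at ranks 31388 and 42998 against 214772 and 176348 at 80% epiboly and 30943 and 36175 against 86935 and 81860 at 24 hpf. The former ranked better in DMSO at those stages, with 47351 and 33216 at 80% epiboly against 108772 and no peak in atRA.

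Sites open in all 4 libraries also shifted in rank. Among the 29579 regions in the best 50000 of every library, 536 (1.81%) had both atRA ranks better than both DMSO ranks by at least 2 times, and 452 (1.53%) the reverse. The crossed pairs gave 115, 131, 154 and 162 regions (0.389%, 0.443%, 0.521% and 0.548%). At a factor of at least 3 there were 104 (0.352%) in the atRA direction and 55 (0.186%) in the DMSO direction, against 7 to 15 in crossed pairs. At a factor of at least 4 there were 31 (0.105%) and 14 (0.0473%), against 2 to 4. Regions stronger in atRA by rank had a median scaled log2 ratio of 0.48 (range -0.32 to 1.04). For those stronger in DMSO it was -0.58 (range -1.13 to -0.25). Some regions better ranked in atRA were thus weaker there on the scaled measure. Regions stronger in atRA were in the best 50000 of 96.0% at 24 hpf and 83.0% at 80% epiboly, as means over libraries. For those stronger in DMSO the means were 80.8% and 90.9%, and for all 29579 they were 85.5% and 81.8%. Chromosome 13 held 8.21% of those stronger in atRA, 3.54% of those stronger in DMSO and 4.04% of all.

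Ranks and scaled pileups parted at some of the strongest peaks ranked better in atRA. In the DMSO direction, the 5 regions with ranks furthest apart differed on both scales, with scaled ratios of DMSO over atRA of 1.44 to 1.88. The region whose ranks lay furthest apart, chr10:35321014-35321370, ranked 16 and 38 in atRA and 348 and 581 in DMSO, yet its scaled pileups were 58.1 and 59.0 against 68.1 and 52.2. On the scaled measure its treatments overlapped through DMSO replicate 1 alone, as 52.2 in DMSO replicate 2 lay below both atRA values. Highest pileups were 111 and 137 in the DMSO lists and 134 and 132 in the atRA lists. They did not rise in step with the backgrounds of 0.69, 1.15, 1.6 and 1.44. The part of depth in this overlap was not tested. The region chr22:30322353-30322835 differed on both scales, with ranks of 2915 and 2043 after atRA, 16064 and 19709 after DMSO, and scaled pileups of 37.5 and 42.4 against 23.2 and 22.6. In the other direction, chr24:39649442-39649821 ranked 791 and 538 in DMSO against 7283 and 5889 in atRA, with scaled pileups of 60.9 and 58.3 against 29.4 and 34.0. These regions were chosen after their values were seen.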

How the data were processed

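The authors deposited 1 peak list per library, in which fold enrichment is a ratio over the local background and the score is a whole number that tracks the −log10 q-value. The authors also deposited a −log10 p-value, a −log10 q-value and a summit position for each peak. The submitters' processing notes name Bowtie2, SAMtools, MACS2 and GRCz10 (danRer10), with no settings; peak names carry a word for nucleosome-free fragments. These values are each list's own and were used to rank and describe peaks. No genome or annotation of that build was used, so the planned gene-start, gene-locus, motif and cell-type-marker comparisons were not made.

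Peaks on chromosomes 1 to 25 were ranked by p-value, then fold, then position, and shared if they overlapped by 1 bp. A whole-number summit pileup and a background were solved from fold and p (within 0.001 for 100% of peaks, taking fold as pileup + 1 over background + 1). Dividing by the background assumes that all lists were called with the same extension and genome size. Fragment totals are unknown, so depth sets no interval here; Wilson intervals treat regions as independent. Named regions were the 10 gained and 10 lost of best worse rank, the 5 without a DMSO peak, and the 3 per direction that kept it at another stage. The calling was tested on simulated lists, all made from 1 DMSO library with added noise, so unequal depth was not covered. Members, lists and rules were chosen with earlier results of these data known. Python 3.11.15, numpy 2.4.6, pandas 2.3.3 and scipy 1.17.1 were used.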

Additional observations from a re-analysis of the deposited data

Results flagged for a closer look

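Peaks on the mitochondrial genome were used in no comparison. At 12 somites they covered 6054 and 6063 bp in the atRA libraries and 5879 and 5912 bp in the DMSO libraries, a mean difference of 163 bp with no overlap between treatments. Background pileups were also higher in both atRA lists (1.6 and 1.44 against 0.69 and 1.15), and their part in this difference was not tested.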

How the results depend on the processing

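Counts moved with the rule. Gained and lost regions were 156 and 55 with the best 20000 peaks and a wider set of 40000, 3000 and 1428 with the best 100000 and a wider set of 150000, and 26836 and 4359 when every peak with a q-value up to 0.01 was used, which leaves list lengths unequal. Absence from the whole list gave 43 and 0 of the 76010 regions, with 0 to 3 in crossed pairs. Absence from the best 50000 gave 3429 (4.51%) and 2516 (3.31%), with 1407 to 1814 in crossed pairs. Under the other settings neither crossed pairs nor shares of the regions compared were counted, so an excess over crossed pairs is not known there. Of 15 named gained and 13 named lost regions, calls kept were 5 and 1 with the best 20000 and 7 and 2 with the best 100000. Ranked by fold they were 15 and 8, and 5 and 0 both at the q-value limit and with absence from the whole list. Reciprocal overlap and summit windows kept all of them. Leaving out 1 library and absence from the best 50000 also kept all, but these settings only loosen the rule, which fixes that outcome. Reciprocal overlap of 50% gave 1281 gained regions, and summit windows 295 lost regions. Without 1 library, gained regions ranged from 1108 to 2723 and lost from 589 to 3206, and the separation of treatments from -1.82 to 9.51 points. Under the other settings the separation kept its sign.

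The stage difference was -21.4 points for gained regions (exact permutation p = 0.143) and -36.4 points for lost regions (exact permutation p = 0.114) when every peak with a q-value up to 0.01 was used; the cause was not tested. The other settings run kept the direction at p = 0.0286, which is the smallest p of this exact permutation test and does not show stability: sizes ranged down to 9.0 points for gained and -5.07 points for lost regions. Gained regions in both DMSO libraries of 24 hpf came to 29.9% (best 100000), 33.2% (reciprocal overlap), 14.0% (absent from the whole list) and 38.3% (absent from the best 50000), and 13% to 43.4% without 1 library. For 80% epiboly these were 20.6%, 37.1%, 6.98% and 27.1%, with 63.2% at the q-value limit and 9.82% to 33.7% without 1 library. Lost regions in both DMSO libraries of 24 hpf came to 1.82% (best 20000), 9.87% (best 100000), 11.2% (q-value limit), 15.3% (summit windows) and 15.7% (absent from the best 50000), and 1.78% to 10.6% without 1 library. For 80% epiboly they were 64.0% (q-value limit), 29.4% (absent from the best 50000) and 7.86% to 26.7% without 1 library. With no lost region left, absence from the whole list gave no such values.

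The treatment difference at other stages could not pass 0.05 in any setting, since the smallest exact permutation p is 0.0556 (0.125 with the block). For gained regions it turned to -0.158 (best 100000), -0.508 (ranked by fold), -19.2 (q-value limit) and -2.99 points (reciprocal overlap), and ranged from 0.367 to 2.03 without 1 library. For lost regions it turned to 1.36 (best 20000), 0.763 (summit windows) and 0.556 points (absent from the best 50000), and ranged from -0.809 to 0.255 without 1 library. Regions stronger in atRA and DMSO by rank were 270 and 241 with the best 20000 and 1005 and 786 with the best 100000; ranking by fold gave 830 for atRA.

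With a replicate block the separation was 2.81 points, and the treatment differences at other stages were 2.15 points (exact permutation p = 0.875) and -0.273 points (p = 1.0, exact). Rank deviations of same-numbered libraries were not related over the 29579 regions in the best 50000 of all 4 (r = 0.004). This gave no sign that the numbers pair the samples and cannot exclude it. Settings for the stage difference, rank shifts and chromosome 13 were added after seeing the data. Depth differed behind the counts: the best 50000 peaks reached down to a pileup of 10 in DMSO replicate 1 and 22 in atRA replicate 1.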

Other observations

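Lost regions lay nearer to chromosome ends than gained regions. Of the lost regions, 30.6% were within 5 Mb of the first or last region of their chromosome, against 15.2% of gained, 23.2% of all and 17.6% of crossed-pair regions. Lost regions were also narrower, with a median of 261 bp against 314 bp for gained, 309 bp for all and 277 bp for crossed-pair regions. Lost regions take their width from DMSO peaks and gained regions from atRA peaks. Over whole lists the median peak width was 164 and 178 bp in DMSO and 185 and 184 bp in atRA. The part of this in the widths of the regions was not tested. The number of other regions within 50 kb was similar, with a mean of 7 around gained, 6.21 around lost and 6.99 around all regions. These values were not tested.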
